A study of Mus musculus with 6 samples.

Results

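The genes described here encode the desmin, filamin C and Xin network, a set of intermediate filament and Z-disc-associated scaffold proteins linked to the repair of damaged sarcomeres. The members were 10 named genes (Des, Flnc, Xirp1, Xirp2, Synpo2, Synpo2l, Bag3, Nexn, Smtnl1 and Vim), and every probe that the platform annotation assigns to one of them was taken, which gave 15 probes for 9 genes among 45281 probes on the array. No probe is assigned to Xirp1 in that annotation. Transcripts of the tibialis anterior, a fast muscle of the hindlimb, were profiled with Illumina bead arrays in 3 mice whose nebulin lacks its SH3 domain (genotype Neb∆SH3, here Neb SH3-deleted) and 3 wild type mice. All 6 mice were males aged 8 weeks on a mixed Sv129/Black Swiss background, and each gave 1 array. The labels call them biological triplicates, and whether the wild type mice were littermates is not given in the sources used here. Because whole muscle was used, a smaller number of cells of one type and less RNA per cell cannot be told apart.

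The sarcomere is anchored at the Z-disc, where thin filaments of neighbouring sarcomeres overlap. Desmin filaments wrap the Z-discs and tie myofibrils to each other and to the membrane, and filamin C crosslinks actin there. After strenuous contraction filamin C unfolds, Xin proteins and filamin C gather at the lesions, and the co-chaperone Bag3, with the chaperones Hspa8 and Hspb8, directs unfolded filamin to autophagy in a process called chaperone-assisted selective autophagy. Nebulin runs along the thin filament with its SH3 domain in the Z-disc, and Xin-repeat proteins are among the known ligands of that domain. The comparison asks whether deleting it alters the transcripts of this network in the muscle.

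Most of the network was too dim to measure. A probe was counted as above background on an array when its detection p-value, its rank among the array's negative control probes, was under 0.05. By that measure 9 of the 15 member probes were above background on no array, 2 on some arrays, and 4 on all 6 (1 probe each of Des, Flnc, Bag3 and Smtnl1). Of all 45281 probes, 32399 were above background on no array. Only those 4 member probes passed the filter for testing, at least 3 of the 6 arrays above background, which 3422 of all 45281 probes passed. The share that passed was 26.7% of member probes, against 7.56% of all probes. Levels below are normalized log2 intensities, made by subtracting the background and setting the 6 arrays to a common distribution, and a difference is Neb SH3-deleted minus wild type. No member probe passed an adjusted p of 0.05 (limma with Benjamini-Hochberg adjustment over all 3422 probes, adjusted p 0.984 to 0.998), and 0% of all tested probes did. At an unadjusted p under 0.05 there were 0 of the 4 member probes, against 4.30% of all tested probes. The 2 genotypes overlapped in level for all 4 member probes, while they did not overlap for 9.06% of all tested probes. Of the 4, Flnc and Bag3 were nominally higher and Des and Smtnl1 nominally lower in Neb SH3-deleted muscle, with a median log2 difference of 0.09 over the 4 and -0.03 over all tested probes. Another scaling turned the direction of Bag3 (median scaling) and of Des and Smtnl1 (cyclic loess).

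**Figure D1:**
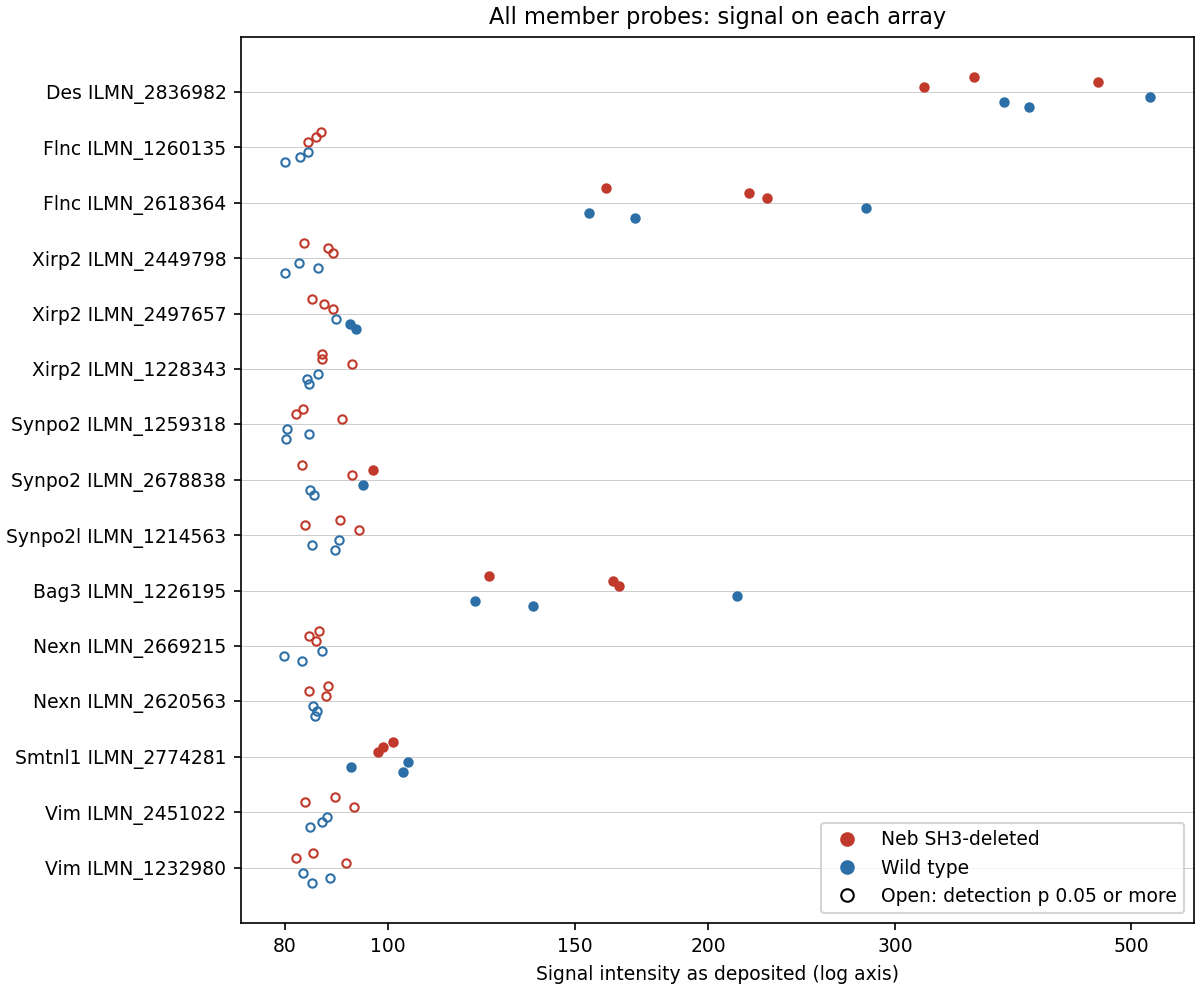
Signal intensity as deposited (horizontal log axis) of the 15 member probes (rows) on each of the 6 arrays, with Neb SH3-deleted arrays above wild type arrays in each row and open circles where the detection p was 0.05 or more. The probes of Des, Flnc (ILMN_2618364), Bag3 and Smtnl1 are filled on all 6 arrays, while the other 11 probes lie between 79.9 and 96.8 and are filled on at most 2.

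Quality of the arrays bears on these values. Per array, 4000 to 4667 probes were above background in Neb SH3-deleted muscle, against 4506 to 5844 in wild type muscle. On the first principal component of the tested probes (32.57% of the variance), Neb SH3-deleted replicate 1 (12.4) and wild type replicate 2 (10.7) stood apart from the other 4 arrays (-6.64 to -5.09), so values without both are given below. On the second component (23.364% of the variance) Neb SH3-deleted replicate 3 (-13.2) stood apart from the other arrays (-4.93 to 6.17). Neb itself had 1 probe, above background on 0 of 6 arrays, so the array does not check the genotype labels. Of 10 skeletal muscle markers 9 were tested, which include Acta1 (skeletal α-actin) and Pvalb (parvalbumin of fast fibres), each above background on all 6 arrays.

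To show the control regions of the members whose levels varied together (Flnc and Bag3, described below) and of Des, whose level varied little, their promoters are given from RefSeq on GRCm38.p6. Each runs from 250 bases before to 50 bases after the annotated start, on the gene's own strand. Capitals mark matches, on either strand, to a heat shock element core (GAANNTTC), the MCAT motif of TEAD factors (CATTCC), the E-box of myogenic factors (CANNTG), the CArG box of serum response factor or the MEF2 site. Des lies at chr1:75360042-75360341 (plus strand), Flnc at chr6:29432903-29433202 (plus strand) and Bag3 at chr7:128523333-128523632 (plus strand).
Des: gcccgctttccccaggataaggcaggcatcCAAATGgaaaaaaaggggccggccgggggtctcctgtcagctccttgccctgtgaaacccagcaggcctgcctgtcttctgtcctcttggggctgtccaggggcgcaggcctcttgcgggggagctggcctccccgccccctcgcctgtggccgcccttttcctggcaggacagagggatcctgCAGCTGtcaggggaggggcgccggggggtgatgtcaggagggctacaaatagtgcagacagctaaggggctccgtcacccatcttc
Flnc: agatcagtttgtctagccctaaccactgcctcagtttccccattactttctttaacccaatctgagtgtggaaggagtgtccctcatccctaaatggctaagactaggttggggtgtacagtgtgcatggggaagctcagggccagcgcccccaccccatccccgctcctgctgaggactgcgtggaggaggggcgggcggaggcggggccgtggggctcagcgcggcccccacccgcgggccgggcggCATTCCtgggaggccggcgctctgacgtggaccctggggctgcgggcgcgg
Bag3: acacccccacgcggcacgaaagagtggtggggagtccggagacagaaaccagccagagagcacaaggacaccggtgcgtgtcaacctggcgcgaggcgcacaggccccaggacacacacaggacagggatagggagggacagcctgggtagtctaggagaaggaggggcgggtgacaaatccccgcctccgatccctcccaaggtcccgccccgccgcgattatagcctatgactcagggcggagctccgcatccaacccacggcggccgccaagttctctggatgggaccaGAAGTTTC
The Flnc promoter printed held 1 MCAT match, which 14.66% of 32851 promoters of this length also hold. It began at -1 relative to the annotated start, and a further Flnc entry, not printed, held the same match at -104. The Bag3 promoter held 1 heat shock element core, found in 7.86% of the 32851 promoters, which began at 43, after the annotated start. The Des promoter held 2 E-boxes; 72.31% of promoters hold at least 1. None of the 3 promoters printed held a match to the CArG box (1.629% of promoters) or the MEF2 site (3.187%). Single MEF2 matches occurred in the promoters of Xirp2, Synpo2 and both entries of Synpo2l. Promoters were listed for 8 of the 10 members, and such matches describe the letters in the window and were not tested for binding.

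Desmin is the main intermediate filament of mature muscle. The Des probe (ILMN_2836982) gave signal intensities of 356, 465 and 319 in Neb SH3-deleted replicates 1, 2 and 3, against 521, 379 and 401 in wild type replicates 1, 2 and 3. After normalization its levels were 8.44, 8.37 and 8.25 in Neb SH3-deleted muscle, against 8.44, 8.14 and 8.48 in wild type muscle. The Neb SH3-deleted levels lay inside the wild type range. The means were 8.354 ± 0.096 in Neb SH3-deleted and 8.356 ± 0.184 in wild type muscle (log2, SD, n = 3 each). The difference was -0.0019 on the log2 scale (95% interval -0.36 to 0.35, adjusted p 0.998 by limma), so ratios of Neb SH3-deleted over wild type below 0.780 or above 1.28 lay outside the interval. Des had the smallest range over the 6 arrays of the 4 tested members, 0.34 on the log2 scale, and 87.7% of all tested probes had a larger one. Its direction depended on the scaling, with a difference of 0.06 by cyclic loess and -0.26 by median scaling, and it was -0.15 without both arrays apart on the first component. Smooth muscle of vessels also makes desmin, and of 7 smooth muscle markers 3 were tested, with summed normalized intensities of 295 to 403 in Neb SH3-deleted and 291 to 323 in wild type muscle, whose part in the Des level was not tested.

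Filamin C, encoded by Flnc, is the muscle filamin of the Z-disc and the costamere, the membrane attachment next to it. Its measured probe (ILMN_2618364) gave signal intensities of 160, 218 and 227 in Neb SH3-deleted replicates 1, 2 and 3, against 282, 155 and 171 in wild type replicates 1, 2 and 3. Normalized levels were 6.81, 6.93 and 7.56 in Neb SH3-deleted muscle, against 7.37, 6.33 and 6.72 in wild type muscle. Wild type replicate 1 exceeded Neb SH3-deleted replicates 1 and 2, so the genotypes overlapped. The mean raw signal was 202.1 ± 36.3 in Neb SH3-deleted and 202.3 ± 69.2 in wild type muscle (SD, n = 3 each). On the normalized scale the log2 difference was 0.29 (95% interval -0.32 to 0.90, 1.22-fold, interval 0.803 to 1.87, adjusted p 0.984 by limma). It stayed above 0 in all 17 alternatives, at 0.04 (median scaling) to 0.57. Some of these, such as another filter, could not change the difference of a probe. The difference was largest without wild type replicate 1 (0.57). It was smallest among arrays left out without wild type replicate 2 (0.0546), and was 0.0637 without Neb SH3-deleted replicate 3, the array apart on the second component. It was 0.20 without both arrays apart on the first component. A second Flnc probe (ILMN_1260135) was above background on 0 of 6 arrays, with signals of 80.1 to 86.6, and gave no level to set beside the first.

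Bag3, the co-chaperone of that filamin-clearing route, gave signal intensities of 124, 163 and 165 in Neb SH3-deleted replicates 1, 2 and 3, against 213, 121 and 137 in wild type replicates 1, 2 and 3 (ILMN_1226195). Normalized levels were 6.03, 6.30 and 6.80 in Neb SH3-deleted muscle, against 6.80, 5.63 and 6.15 in wild type muscle. The highest and the lowest level were both in wild type arrays. The log2 difference was 0.18 (95% interval -0.46 to 0.82, 1.13-fold, interval 0.729 to 1.76, adjusted p 0.984 by limma). Its direction turned to -0.0566 with median scaling, to -0.10 without wild type replicate 2 and to -0.0296 without Neb SH3-deleted replicate 3. Without both arrays apart on the first component it was 0.07.

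Smtnl1 encodes a smoothelin-like protein, a substrate of cyclic nucleotide-dependent kinases that acts on myosin phosphatase. Its probe (ILMN_2774281) was close to background, with signal intensities of 101, 98.9 and 97.9 in Neb SH3-deleted replicates 1, 2 and 3, against 104, 92.3 and 103 in wild type replicates 1, 2 and 3. Normalized levels were 5.11, 4.77 and 4.62 in Neb SH3-deleted muscle, against 4.89, 4.59 and 5.11 in wild type muscle. The arrays of both genotypes covered nearly the same span. The log2 difference was -0.03 (95% interval -0.46 to 0.39, adjusted p 0.991 by limma), and it was -0.31 without both arrays apart on the first component.

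**Figure D2:**
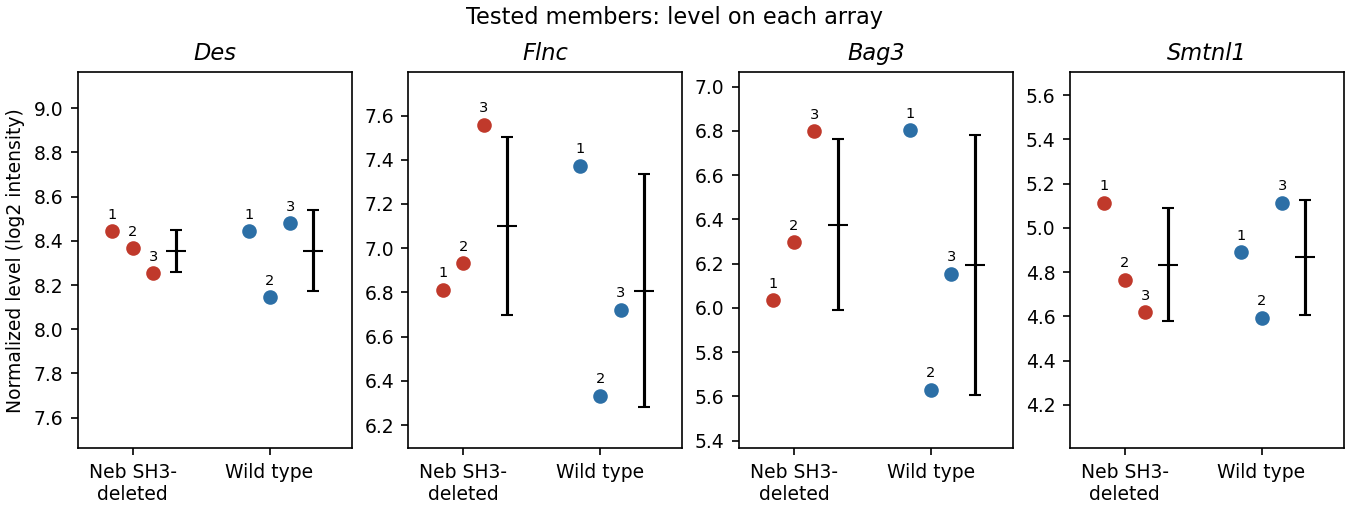
Normalized level (log2 intensity, vertical axes of equal span) of the 4 tested members on each array, with replicate numbers above the points and the mean with its SD (n = 3) at the right of each group. For all 4 members the 3 arrays of either genotype spread by more than the gap between the means. Des lies between 8.14 and 8.48 on all 6 arrays.

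**Figure D3:**
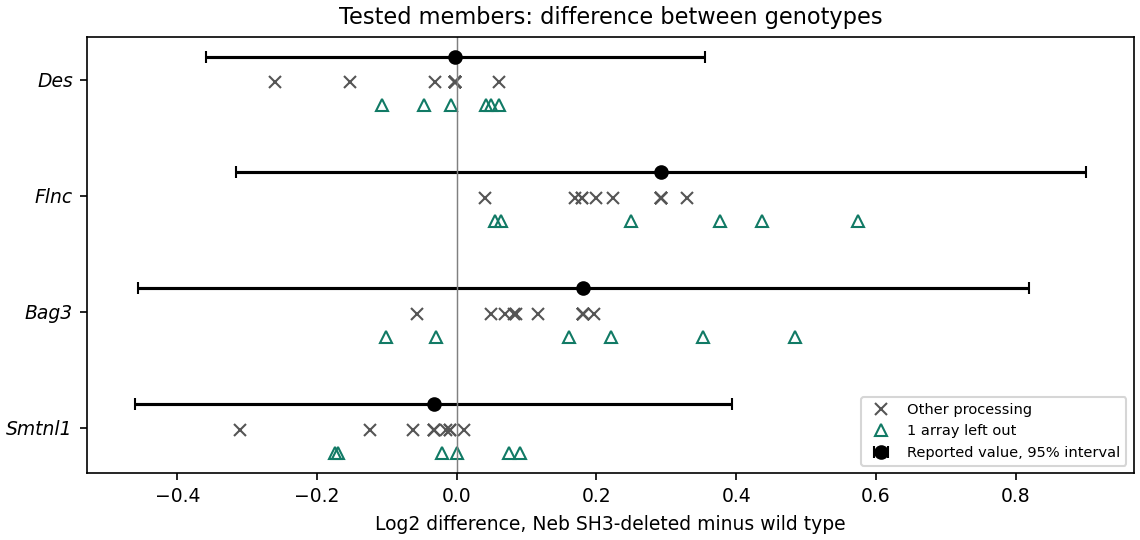
Log2 difference, Neb SH3-deleted minus wild type, of the 4 tested members, with the 95% interval (black). Crosses are the values under other processing and triangles those with 1 array left out. The value without both arrays apart on the first component is also drawn as a cross. All 4 intervals include 0, and only Flnc stays on one side of 0 in every alternative, from 0.04 to 0.57. Crosses at the reported value are alternatives, such as other filters, that could not change it.

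Flnc and Bag3 varied between arrays more than most probes did, and they varied together. Each mouse gave 1 array, so variation between animals cannot be told apart from variation between array preparations. Flnc levels spanned 0.75 on the log2 scale within Neb SH3-deleted muscle and 1.04 within wild type muscle. Bag3 levels spanned 0.76 within Neb SH3-deleted muscle and 1.17 within wild type muscle. Only 3.95% of the 3422 tested probes had a larger range over the 6 arrays than Flnc, and 5.17% had a larger range than Bag3. In raw signal both genes ranked the 6 arrays in the same order, with wild type replicate 1 highest. It was followed by Neb SH3-deleted replicate 3, Neb SH3-deleted replicate 2, wild type replicate 3, Neb SH3-deleted replicate 1 and, lowest, wild type replicate 2. These extremes were partly common to the other tested members. In raw signal wild type replicate 1 was also highest for Des and Smtnl1, and wild type replicate 2 was also lowest for Smtnl1, though not for Des. On the normalized scale wild type replicate 2 was lowest for each of the tested members. After normalization the orders of Flnc and Bag3 were not the same. Neb SH3-deleted replicate 3 was highest and wild type replicate 1 next for Flnc, and the reverse for Bag3. Neb SH3-deleted replicate 1 stood above wild type replicate 3 for Flnc and below it for Bag3. After each probe's mean was subtracted, their levels differed by a root mean square of 0.0845 on the log2 scale and by at most 0.11 on any array (Pearson r 0.979 across 6 arrays). This correlation is a description of 6 arrays that share the normalization and both genotypes. The arrays apart on the first component were also low for both genes, at -0.14 for Flnc and -0.25 for Bag3 in Neb SH3-deleted replicate 1, and at -0.62 for Flnc and -0.66 for Bag3 in wild type replicate 2, relative to the mean of the 6 arrays. With both left out, the root mean square difference was 0.0786 over 4 arrays. In that setting 7 of 2549 other tested genes lay nearer to Flnc than Bag3 did, and 4 lay nearer to Bag3 than Flnc did.

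The genes nearest to Flnc by the same measure, among 2549 tested genes that are not members, were Atp2a1 (the fast-fibre calcium pump, 0.13), Myoz3 (calsarcin 3, a Z-disc protein that binds filamin, 0.15) and Xbp1 (a transcription factor of the unfolded protein response, 0.17). Bag3 was nearer to Flnc than any of them, and 0 of the 2549 genes were nearer, a count made after the values were seen. Levels were not scaled to equal spread, so genes of a much smaller range than Flnc could not come this near, whatever their pattern. Flnc ranged over 1.23 on the log2 scale, against a median range of 0.57 over all tested probes. Over 12 settings (the scalings, each array left out and both arrays left out together) 0 genes were nearer to Flnc than Bag3 in 9, and 0 were nearer to Bag3 than Flnc in 8, with 1 to 4 such genes in the others. The exceptions for Flnc were 1 gene, Csrp3, without background correction and in the deposited values, and 7 genes without both arrays apart on the first component. Des and Smtnl1 also moved alike (root mean square 0.12, r 0.900 across 6 arrays), but over the small range of Des, and Des stood at 0.40 from Flnc and from Bag3. The genes nearest to Des were Tmem234 (0.0229), Marcks (a membrane-bound actin crosslinker, 0.0337) and Fkbp1a (the FK506-binding protein of the ryanodine receptor, 0.0381). Each of these was nearer to Des than Smtnl1 was, and the number of such genes was not counted.

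**Figure D4:**
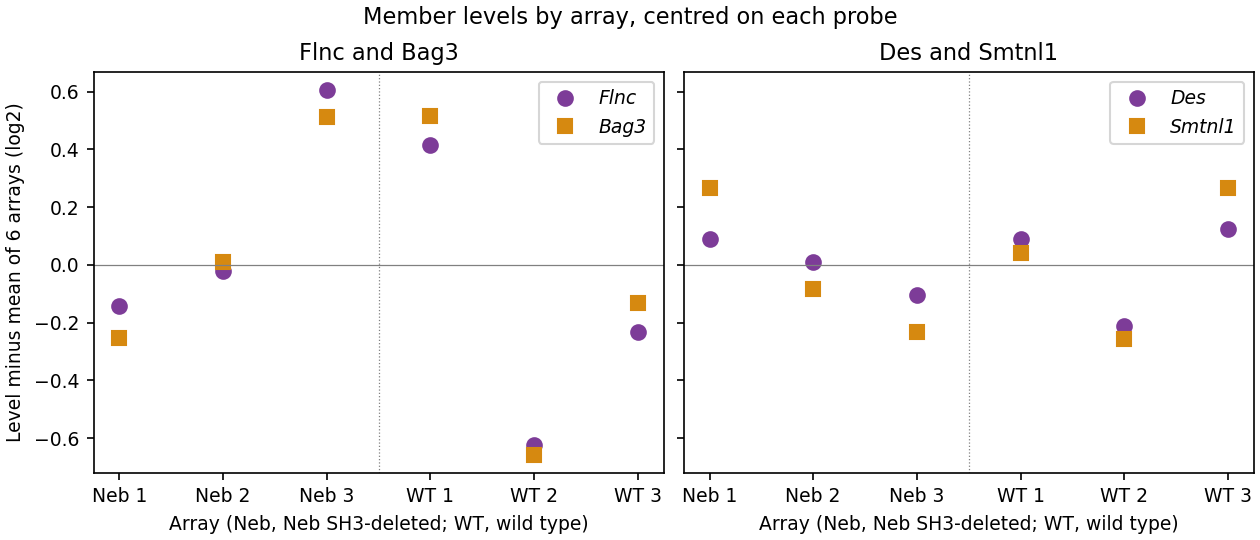
Level of each tested member minus its mean over the 6 arrays (log2, vertical axis) on each array (horizontal axis, Neb SH3-deleted left of the dotted line and wild type right of it). Flnc and Bag3 (left) lie within 0.11 of each other on every array and are lowest in wild type replicate 2, at -0.62 and -0.66. Des and Smtnl1 (right) share another pattern over a smaller span and are also lowest in wild type replicate 2, at -0.21 and -0.26.

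Xirp2 carries the Xin repeats that bind actin and had 3 probes. Of these ILMN_2497657 was above background on 0 Neb SH3-deleted and 2 wild type arrays, with signals of 84.8, 87.1 and 88.8 in Neb SH3-deleted replicates 1, 2 and 3, against 89.4, 92.2 and 93.3 in wild type replicates 1, 2 and 3. The genotypes did not overlap in this raw signal, with the Neb SH3-deleted arrays lower. The other 2 Xirp2 probes were above background on 0 of 6 arrays. One of them, ILMN_1228343, also did not overlap but in the opposite direction, with signals of 86.8, 86.7 and 92.7 in Neb SH3-deleted replicates 1, 2 and 3, against 86.0, 84.0 and 84.2 in wild type replicates 1, 2 and 3. Both probes lay near the background, and the genotypes did not overlap in raw signal for 9.83% of all 45281 probes. ILMN_2497657 was not tested. Xirp2 lies on chromosome 2, as do Neb, Smtnl1 and Vim.

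No probe of the remaining members passed the filter. Synpo2 encodes myopodin, a Z-disc partner of filamin C that takes part in filamin clearance, and its probe ILMN_2678838 was above background on 1 Neb SH3-deleted and 1 wild type array. Its signals were 83.1, 96.8 and 92.6 in Neb SH3-deleted replicates 1, 2 and 3, against 94.7, 84.5 and 85.3 in wild type replicates 1, 2 and 3. Its second probe, the probe of its relative Synpo2l, both probes of Nexn (nexilin, an actin-binding Z-disc protein) and both probes of Vim were above background on 0 of 6 arrays. Vim encodes vimentin, the intermediate filament of mesenchymal cells and immature fibres, and its lowest detection p was 0.0609. Of 8 fibroblast markers 3 were tested, among them Dcn (decorin), which was above background on all 6 arrays. Of 8 satellite cell and regenerating fibre markers 1 was tested. For these members a change in transcript level was not detectable at this signal.

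Partners of the network were followed in 5 lists of 73 genes, of which 34 were tested with 50 probes, and 0 of the 50 passed the threshold (0% of all probes did). The nominal directions below moved with the scaling, and the median of each of the 5 lists was lower with median scaling, as was that of all tested probes (-0.10). With it the median turned to -0.15 for filamin C and Xin partners and to -0.11 for smoothelin-like and myosin phosphatase genes, and all 6 genes of chaperone-assisted selective autophagy were nominally lower. With cyclic loess 4 of these 6 were nominally higher (median 0.03), as were 5 of 7 desmin-linked genes and 6 of 6 repair genes. Among genes tied to desmin filaments 4 of 7 tested were nominally higher and 3 lower (median log2 difference 0.17, against -0.03 over all tested probes). Lmna, the nuclear lamin A/C gene, was at 6.02 ± 0.30 in Neb SH3-deleted and 5.67 ± 0.10 in wild type muscle (SD, n = 3 each), a log2 difference of 0.35 (95% interval -0.06 to 0.75). Its second probe gave 0.06. The others of smallest p in this list were Dtna (dystrobrevin α, -0.26), Sync (syncoilin, an intermediate filament protein, -0.18) and Plec (plectin, which links desmin to the Z-disc, 0.27, and -0.07 by a second probe).

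Among partners and paralogs of filamin C and the Xin proteins 5 of 10 tested were nominally higher and 5 lower (median 0.06). Tcap (telethonin) was at 0.45 (95% interval -0.05 to 0.95) while another of its probes gave 0.25, and Myoz3 at 0.37 (-0.15 to 0.89). Actn2, the α-actinin that crosslinks actin at the Z-disc, was at -0.34 (-0.79 to 0.10) and at -0.38 by another probe, and Myoz1 (calsarcin 2) at -0.42 (-1.09 to 0.24).

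In the list of chaperone-assisted selective autophagy 3 of 6 tested genes were nominally higher and 3 lower (median -0.03). Hspb6, a small heat shock protein, was at 0.41 (95% interval -0.26 to 1.08, and -0.0105 with median scaling) and Dnajb6, a co-chaperone of the Z-disc, at -0.28 (-0.82 to 0.25). Stx7, a syntaxin of late endosomes, was at -0.14, and Sqstm1, the autophagy receptor p62, at 0.09 (-0.16 with median scaling). Hspb8, the direct partner of Bag3 and named here after its values were seen, had levels of 5.91, 5.53 and 4.69 in Neb SH3-deleted replicates 1, 2 and 3, against 5.31, 5.35 and 5.44 in wild type replicates 1, 2 and 3. Its lowest array was Neb SH3-deleted replicate 3, on which Flnc was highest. In wild type muscle Hspb8 stayed within 5.31 to 5.44, while Flnc ranged from 6.33 to 7.37. The log2 difference of Hspb8 was 0.01 (-0.57 to 0.59), and -0.26 by a second probe.

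Among the smoothelin-like and myosin phosphatase genes 3 of 5 tested were nominally higher (median 0.15), with Mylk2, the skeletal myosin light chain kinase, at 0.23, Mylpf, the fast regulatory light chain, at 0.18, Smtn (smoothelin) at 0.15 and Smtnl2 at -0.18. Further probes gave 0.05 and -0.03 for Mylk2, -0.08 for Mylpf and -0.11 for Smtn, and median scaling turned Mylpf to -0.0750 and Smtn to -0.11. Among genes of membrane and sarcomere repair 5 of 6 were nominally higher (median 0.17). These included Ahnak, a giant scaffold of the repair complex, at 0.24 (95% interval -0.25 to 0.74, with further probes at -0.11 and 0.05), Anxa5 (annexin A5) at 0.18, Capn2 (a calpain) at 0.16 and Trim72, the membrane-sealing protein MG53, at 0.35 (-0.57 to 1.26). All these intervals included 0. Capn2 was above background on 3 of the 6 arrays and Anxa5 on 5, both near the background with mean levels of 4.36 to 4.57.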

How the data were processed

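The authors deposited a non-normalized table which, per the file headers, gives every probe on every array a signal intensity (average over beads) and a detection p-value. They also deposited processed values on what behaves as a log2 scale, made with lumi per the submitters' processing notes. Its version and settings are not stated there. RNA was extracted with Trizol and biotin-labelled cRNA prepared with the Ambion MessageAmp kit, per the labels' protocols. The labels gave each array's genotype and replicate number.

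From the intensities, limma 3.58.1 in R 4.3.3 corrected the background (normexp fitted from detection p-values, offset 16), followed by log2 and quantile normalization. Every probe above background (detection p below 0.05) on 3 or more of the 6 arrays was tested on its own with lmFit and eBayes (two-sided, no covariate), and p-values were adjusted over all 3422 probes by the Benjamini-Hochberg method. The path was tested on simulated arrays with larger changes and a smaller spread than those of Flnc and Bag3. That test does not show how small a change in these genes could be found. The number of arrays limits the precision. Symbols came from the platform annotation (34885 probes with 1 symbol, 18 with several, 10378 with none). For lists, the gene's probe of highest mean level stands for it. Likeness was the root mean square difference of mean-centred levels.

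The members, lists and tests were chosen with earlier results of these data known. The rule for named genes took all members, Neb, up to 4 genes of smallest p per pathway list and the 3 genes nearest to Des and to Flnc. Alternatives covered background, scaling, filters, the deposited values, 1 probe per gene, a replicate block, array weights and arrays left out.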

Additional observations from a re-analysis of the deposited data

How the results depend on the processing

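The number of probes past an adjusted p of 0.05 was 0 in all 17 alternatives, for all tested probes, for member probes and for listed partners (limma). At an unadjusted p under 0.05 there were 147 probes in the reported analysis, and 36 with the strictest filter (1141 probes tested) to 1895 with no filter (45281 tested). Flnc kept its direction in 17 of 17 alternatives. The filters, 1 probe per gene and the replicate block could not turn any direction, because they leave a probe's own difference unchanged. Des turned in 4 of 17, at 0.0611 with cyclic loess and from -0.11 to 0.0601 with 1 array left out. Bag3 turned in 3 of 17, at -0.0566 with median scaling and from -0.10 to 0.48 with 1 array left out. Smtnl1 turned in 4 of 16, at 0.0103 with cyclic loess and from -0.17 to 0.0913 with 1 array left out, and was not tested under the strictest filter, which it did not pass. The cause of these turns was not tested. With the replicate block 0 probes passed and the differences were as reported. The labels do not say that equal numbers mark a shared litter or day. Same-numbered arrays deviated from their group means with correlations of -0.22, -0.18 and 0.09, while Neb SH3-deleted replicate 1 and wild type replicate 2 gave 0.321, so not every array was most like its own number. Leaving out that pair was an alternative chosen after seeing the data. A slide term could not be fitted because no slide is stated. Low signal left 11 of 15 member probes untested, and the 95% intervals of the tested members reached 0.64 to either side on the log2 scale.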

Other observations

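Csrp3, which encodes the muscle LIM protein of the Z-disc, followed the pattern of Flnc and Bag3 with its brighter probe. Its levels were 5.29, 5.69 and 6.55 in Neb SH3-deleted replicates 1, 2 and 3, against 6.33, 4.96 and 5.64 in wild type replicates 1, 2 and 3. The genotypes overlapped, with a log2 difference of 0.20 (95% interval -0.61 to 1.00, adjusted p 0.985 by limma). A dimmer second Csrp3 probe did not show that pattern, at 4.63, 5.01 and 4.53 in Neb SH3-deleted muscle, against 5.06, 4.95 and 4.94 in wild type muscle.

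Hspa8, the constitutive heat shock cognate chaperone that works with Bag3, differed widely between arrays within each genotype by its brighter probe. Its brighter probe was at 4.99, 7.04 and 7.16 in Neb SH3-deleted replicates 1, 2 and 3, against 7.23, 5.22 and 6.98 in wild type replicates 1, 2 and 3. The low arrays were those that stood apart on the first principal component, and their part in this was not tested. A second Hspa8 probe was at 4.79, 5.39 and 4.52 in Neb SH3-deleted muscle, against 5.11, 4.82 and 5.71 in wild type muscle. Both genes were named after their values were seen.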
